A study of Mus musculus with 24 samples.

Results

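Anxa4 and Bicc1 are genes linked to bile duct epithelium, and their RNA was followed while HBC-3 cells differentiated on Matrigel. They were chosen by symbol, and each was measured by 1 feature of the 24157 features on the array. The Anxa4 feature had a value on 22 of 24 arrays and the Bicc1 feature on all 24. HBC-3 is a mouse line of hepatoblasts, the liver precursors of both hepatocytes and bile duct cells, and Matrigel is a gel of basement membrane proteins. The series held 24 arrays of 8 groups, from undifferentiated cells at day 0 through days 1, 2, 3, 4, 5, 6 and 7 on Matrigel, with 3 arrays a day lettered A, B and C. Each array carried Cy5 target from its own sample and Cy3 target from 1 common reference, undifferentiated HBC-3 cells, so both channels of a day 0 array held undifferentiated cells. All groups came from this 1 line, which is kept on STON+ feeder cells. The protocols describe trypsin treatment and replating on plastic to take off that layer, RNA amplification and labelling with random primers.

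Annexin A4 binds membrane phospholipids when calcium rises and is abundant in secretory and ductal epithelia, the lining of bile ducts among them. Bicaudal C homologue 1, the product of Bicc1, binds RNA through KH domains, forms polymers through a SAM domain and silences target mRNAs, in part by recruiting the CCR4-NOT deadenylase complex. Mice without functional Bicc1 develop kidney cysts and dilated ducts in liver and pancreas.

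Of the 32 bile duct genes listed for these samples, 10 had a feature, and 5 had enough values to be tested. Krt19, a keratin of ductal epithelium, had 1 feature with values on 14 arrays: on 2 of 3 arrays at day 0, 3 at day 1, 3 at day 2, 2 at day 3, 0 at day 4, 1 at day 5, 0 at day 6 and 3 at day 7. It was not tested. Krt8 had values on 15 arrays, Epcam on 10, Krt7 on 9 and Jag1 on 1, so the common epithelial and ductal markers could not be used to check the cells. Of the hepatoblast markers, Afp, Igf2 and H19 were measured on all 24 arrays.

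All values are log2 ratios of sample over reference, centred on each array's median, so a difference of 1 is a doubling. They compare a gene with itself across arrays and give no absolute level. No source used here states the log base or the direction of the ratio; base 2 is likely from the spread of values, and the sample as numerator from the dyes. Arrays carried 12328 to 22149 values. Day 0 arrays A and C correlated at -0.34 over all features, B and C at 0.084, and A and B at 0.76. Differences from day 0 called in the fit of all arrays are also given with the sign of all day 0 values turned. So are list genes called at day 7 only that way. This turn leaves the correlation of A with C as it was and shows only how far a difference rests on the sign of day 0. It lowered the number of genes and features called at day 7, in either direction, from 2940 to 1230, so lost calls were common under it. The C arrays of days 4 to 7 were closer to each other than to the other arrays of their day. They correlated with each other at 0.808 to 0.967, and with the A or B array of their own day at 0.468 to 0.624. The A and B arrays of the same day correlated at 0.519 to 0.779. That range overlaps the one of C with A or B, so same-day correlations alone do not set C clearly apart. Results for Anxa4 and Bicc1, and counts of list genes that change, are given both with these C arrays and with them left out. The labels do not state whether arrays A, B and C of 1 day hold RNA of different cultures. The p-values therefore measure array-to-array spread only, part of which may be technical, and the number of arrays limits the precision. In such bulk RNA, fewer cells of a type and less RNA per cell cannot be told apart.

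Anxa4 was higher on every later array than on any day 0 array. Its log2 ratios at day 0 were -0.074 on array A, -0.21 on B and 0.031 on C. At day 1 they were 0.39 on A, 0.57 on B and 0.65 on C. The 3 arrays of day 1 thus all lay above the 3 of day 0, with a gap wider than the spread within either day. At day 2, Anxa4 had 0.84 on B and 0.48 on C and no value on A, and at day 3 it had 0.69 on A and 1.08 on B and no value on C. At day 4 the values were 1.00 on A, 1.00 on B and 1.29 on C. At day 5 they were 1.15 on A, 1.68 on B and 0.98 on C. No letter was highest throughout, and the highest single value of the course was that of array B at day 5. At day 6, Anxa4 stood at 0.96 on A, 1.42 on B and 1.37 on C, and at day 7 at 1.09 on A, 1.24 on B and 1.24 on C. From day 4 on, all 12 arrays lay between 0.96 and 1.68, and the ranges of the 4 days overlapped.

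**Figure D1:**
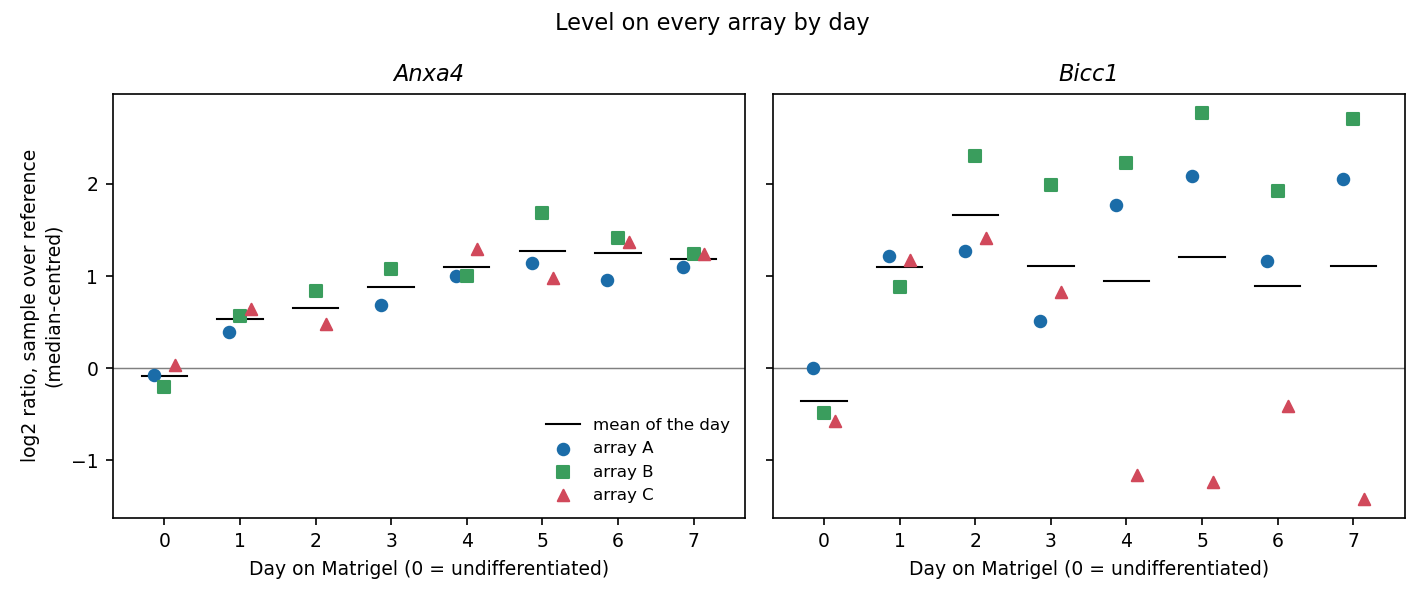
Centred log2 ratio of sample over reference on every array (y axis) by day on Matrigel (x axis) for Anxa4 (left) and Bicc1 (right); symbols mark arrays A, B and C, and black lines mark the mean of each day. Anxa4 lies between 0.96 and 1.68 on all 12 arrays of days 4 to 7, while Bicc1 splits there into 8 A and B arrays at 1.17 to 2.77 and 4 C arrays at -1.42 to -0.41.

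In limma's fit of all 24 arrays, Anxa4 was 1.27 ± 0.21 higher at day 7 than at day 0 on the log2 scale (SE, n = 3 arrays a day, 95% confidence interval 0.82 to 1.72), which is a 2.42-fold difference, with a Benjamini-Hochberg adjusted p of 0.000358. In that comparison 14.6% of the 10639 genes and unnamed features tested were called higher at an adjusted p under 0.05, and 722 of them had a larger difference than Anxa4. With day 0 turned, the day 7 difference was 1.11 (limma adjusted p = 0.00247). Anxa4 was thus well inside the range of the genes that rose by day 7.

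The difference from day 0 grew in steps too small to be told apart. At day 1 the difference from day 0 was 0.62 ± 0.21 (SE, n = 3 arrays a day) and missed the threshold, with a limma adjusted p of 0.0703, beside 4.99% of all tested called higher. At day 2 it was 0.74 ± 0.24 (limma adjusted p = 0.0397, 9.05% of all called higher), with 2 arrays behind the day, and with day 0 turned it was 0.57 (limma adjusted p = 0.141). The day 2 call was also lost in 5 of 6 fits with 1 array of day 0 or day 2 left out, where the difference was 0.56 to 0.92 (limma adjusted p up to 0.268). When only day 0 array C was turned, the differences of days 1 and 2 were 0.64 and 0.76, and both passed (limma adjusted p = 0.0470 and 0.0274). At day 3 the difference was 0.96 ± 0.24 (limma adjusted p = 0.00768, 12.2% called higher), again from 2 arrays, and without array B it was 0.77 (limma adjusted p = 0.105). At days 4, 5 and 6 it was 1.18, 1.35 and 1.33, each ± 0.21, with limma adjusted p of 0.000746, 0.000242 and 0.000262, where 11.3%, 11.7% and 12.2% of all tested were called higher. With day 0 turned, the differences of days 3 to 6 were 0.80, 1.01, 1.19 and 1.17 and all 4 passed.

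The order of the Anxa4 day means, from lowest to highest, was day 0 at -0.083, day 1 at 0.54, day 2 at 0.66, day 3 at 0.88, day 4 at 1.10, day 7 at 1.19, day 6 at 1.25 and day 5 at 1.27. No step between consecutive days from day 1 to day 7 passed the limma test, 0 of 6, so neighbouring days after day 0 did not differ beyond the spread between arrays. From day 1 to day 2, 0.602% of all tested were called in either direction, and 0% at each of the other 5 steps. Coarser comparisons bear on the slope. Anxa4 averaged 1.24 ± 0.23 on the 9 arrays of days 5 to 7 and 0.67 ± 0.23 on the 7 measured arrays of days 1 to 3 (SD), and the fitted difference was 0.55 ± 0.13 (SE, limma adjusted p = 0.0202), beside 3.51% of all called higher and 4.23% lower. That call was lost when the arrays were scaled to 1 common spread, where the difference was 0.24 (limma adjusted p = 0.252). Day 7 was 0.65 ± 0.21 above day 1 (SE, limma adjusted p = 0.110), which missed the threshold, beside 1.54% of all called higher. In the single test of any change over the course, Anxa4 had an F of 9.44 (limma adjusted p = 0.00149), beside 16.3% of all tested called.

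Bicc1 was higher on all 9 arrays of days 1 to 3 and on the 8 A and B arrays of days 4 to 7 than on any day 0 array, and it was low on the 4 C arrays of days 4 to 7. Its log2 ratios at day 0 were -0.00050 on A, -0.49 on B and -0.57 on C. At day 1 they were 1.22 on A, 0.88 on B and 1.18 on C. The first day on Matrigel thus lay apart from day 0 on every array. At day 2, Bicc1 had 1.27 on A, 2.30 on B and 1.41 on C, and at day 3 it had 0.51 on A, 1.99 on B and 0.83 on C. Array B was the highest on both days, and the lowest value of days 1 to 3 was that of array A at day 3.

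From day 4 the letters parted. Bicc1 stood at 1.77 on A, 2.22 on B and -1.16 on C at day 4, and at 2.08 on A, 2.77 on B and -1.24 on C at day 5. At day 6 it stood at 1.17 on A, 1.92 on B and -0.41 on C, and at day 7 at 2.05 on A, 2.71 on B and -1.42 on C. On each of these days array B was the highest and array C the lowest, and C lay below 0 each time. On 3 of the 4 days the C array lay below all day 0 arrays, and on day 6 it lay within their range. The SD of the 3 arrays was 1.19 to 2.22 at days 4 to 7, against 0.19 to 0.78 at days 1 to 3.

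With all 24 arrays, no day differed from day 0 for Bicc1 in the limma test. The difference was 1.45 at day 1 (adjusted p = 0.411), 2.01 at day 2 (0.177), 1.46 at day 3 (0.315), 1.30 at day 4 (0.375), 1.56 at day 5 (0.271), 1.25 at day 6 (0.379) and 1.47 at day 7 (0.284), each with a SE of 1.00. The interval at day 7 was -0.62 to 3.56, wide enough to hold both no change and a rise far above that of Anxa4. Only 0.282% of all tested had a larger standard error than Bicc1 in that comparison. The test of any change over the course gave an F of 0.665 (limma adjusted p = 0.835). At day 2 the call depended on the fit: Bicc1 passed with the arrays scaled to 1 spread (2.45, limma adjusted p = 0.0258) and with only the groups compared (limma adjusted p = 0.00241), and with only the groups compared it also passed at day 1 (0.00338) and day 3 (0.0216). Days 5 to 7 differed from days 1 to 3 by -0.22 ± 0.58 (SE, limma adjusted p = 0.837).

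Without the C arrays of days 4 to 7, Bicc1 was higher than at day 0 on all 7 days. These 4 arrays held the lowest Bicc1 values of days 4 to 7, at -1.42 to -0.41. Leaving them out raised the differences of those days and lowered the SE of every day from 1.00. The calls, fold and rank of this fit therefore follow in part from that choice. The differences were 1.45 at day 1 (limma adjusted p = 0.00977), 2.01 at day 2 (0.000693), 1.46 at day 3 (0.00494), 2.35 at day 4 (0.000579), 2.78 at day 5 (0.000173), 1.90 at day 6 (0.00229) and 2.73 at day 7 (0.000160). Their SE was 0.36 for days 1 to 3 and 0.40 for days 4 to 7, where 2 arrays a day remained. In that fit 10.6%, 16.4%, 19.3%, 13.4%, 14.5%, 13.8% and 17.4% of all tested were called higher at days 1 to 7 in turn. The day 7 difference was a 6.65-fold rise (interval 1.88 to 3.58 on the log2 scale), and 76 of 10639 genes and features had a larger one. For Anxa4 the day 7 difference was 1.25 in the same fit, with 783 larger. The rank of Bicc1 moved with the 4 arrays, since with all 24 arrays 516 genes and features had a larger difference than Bicc1 and 722 a larger one than Anxa4.

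These calls depended in part on the sign of day 0. With day 0 turned and the same 4 arrays left out, Bicc1 still passed at days 2, 4, 5, 6 and 7, with differences of 1.31, 1.64, 2.07, 1.19 and 2.03, and missed the threshold at day 1 with 0.74 (limma adjusted p = 0.190) and at day 3 with 0.76 (limma adjusted p = 0.138). With all 24 arrays and day 0 turned, the differences at days 1 to 7 lay between 0.54 and 1.31 and none passed; that of day 7 was 0.76 (limma adjusted p = 0.693). Without the 4 C arrays, days 5 to 7 were 0.83 ± 0.23 above days 1 to 3 (SE, limma adjusted p = 0.0381, 3.92% of all called higher), and the test of any change gave an F of 10.8 (limma adjusted p = 0.000792, 29.8% of all called). The corresponding values of Anxa4 without these arrays were 0.56 ± 0.14 (SE, limma adjusted p = 0.0209) and an F of 9.72 (limma adjusted p = 0.00191). The 4 arrays thus changed the calls for Bicc1 and left those for Anxa4 on the same side of the threshold, apart from day 1, where Anxa4 passed without them (limma adjusted p = 0.0364).

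**Figure D2:**
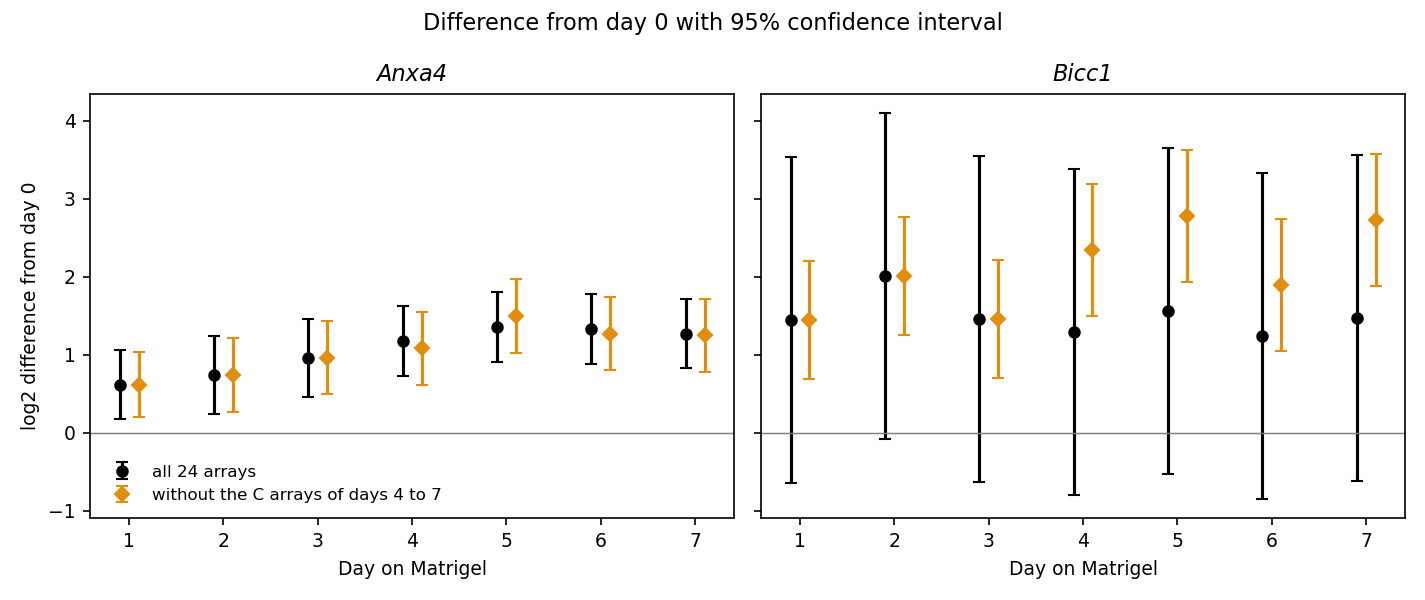
Log2 difference of each day from day 0 (y axis) by day on Matrigel (x axis) for Anxa4 (left) and Bicc1 (right), with 95% confidence intervals; circles are the fit of all 24 arrays and diamonds the fit without the C arrays of days 4 to 7. For Anxa4 both fits lie close together, 1.27 and 1.25 at day 7. For Bicc1 every interval of the first fit spans 0 and none of the second does.

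The size of the split was estimated by a term for the C arrays of days 4 to 7, a comparison chosen after the values were seen. Same-lettered arrays of these days deviated together, in 18 of 18 pairs with a correlation over 0.1, so the 4 C arrays are not independent samples, and the split is described with no test. Bicc1 lay between -1.42 and -0.41 on the 4 C arrays and between 1.17 and 2.77 on the 8 A and B arrays, with no overlap. The fitted difference was -3.14 ± 0.30 (SE of the fit). Of 10621 genes and features, 27 had a lower difference than Bicc1. Anxa4 lay between 0.98 and 1.37 on the same C arrays and between 0.96 and 1.68 on the A and B arrays. Its difference was 0.03 ± 0.15 (SE of the fit), and it was -0.24 with the arrays scaled to 1 spread. The C arrays thus lay inside the range of the others for Anxa4 and wholly below it for Bicc1.

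Setting both genes against each other within each array cancels a shift common to all log ratios of an array, which centring on the median had already removed. It does not cancel a wider spread of log ratios on an array. Anxa4 minus Bicc1 was 1.79 to 2.65 on the 4 C arrays of days 4 to 7, with a mean of 2.28, and -1.47 to -0.21 on the 8 A and B arrays, with a mean of -0.89. The ranges did not overlap, and the means differed by 3.17. This largely restates the split of Bicc1, at -3.14, since Anxa4 differed by 0.03. Over the course itself, Anxa4 minus Bicc1 averaged 0.17 ± 1.59 on the 9 arrays of days 5 to 7 and -0.69 ± 0.53 on the 7 arrays of days 1 to 3 with both genes measured (SD, exact two-sided permutation p = 0.224). Without the C arrays the late mean was -0.86 ± 0.45 (SD, n = 6), and the difference from the early arrays was -0.17 (exact two-sided permutation p = 0.524). Both permutation tests shuffled arrays as if independent, although same-lettered arrays deviated together within days 1 to 3 and within days 4 to 7. Their p-values do not allow for that dependence. A different size of change for the 2 genes between early and late days was not detectable on these arrays.

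Markers of other cells were compared on the same arrays. Of the 20 hepatocyte and hepatoblast genes listed, 8 had a feature and 4 were tested. On the C arrays relative to the A and B arrays, Afp differed by -1.56, Igf2 by -1.29, H19 by -1.78 and Apob by 0.25, beside a median of -0.025 over all tested. Their mean log2 ratio was -0.18 to 1.40 on the C arrays, against 0.89 to 3.55 on the A and B arrays. The 10 fibroblast genes tested, of 19 listed as markers of a feeder layer, differed there by between -1.11 for Col6a2 and 0.63 for Prrx1, with a median of 0.40. Their mean was 0.37 to 0.98 on the C arrays, against -0.06 to 0.96 on the A and B arrays. The mean of the 2 blood genes tested, of 6 listed, was 0.99 to 1.35 on the C arrays and 0.12 to 1.26 on the A and B arrays, and the 1 endothelial gene tested of 5, Cdh5, had a difference of 1.00. The part of these markers in the Bicc1 values was not tested.

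Some genes of the same lists also rose by day 7, where 14.6% of all tested were called higher and 13% lower. At day 7 against day 0, 3 of the 4 hepatocyte and hepatoblast genes rose, H19 by 3.34, Afp by 1.93 and Igf2 by 1.80, and Apob had -0.38. Without the late C arrays the same 3 rose and Apob fell by 0.51. With all arrays and day 0 turned, H19 alone passed, at 3.29, while Afp had 0.78 and Igf2 1.21. Leaving out the late C arrays as well, H19 passed at 3.89 and Igf2 at 1.44 (limma adjusted p = 0.0396), and Afp, at 1.05, did not. Of the 10 fibroblast genes, 3 rose and 0 fell: Pdgfrb by 1.82, Prrx1 by 0.95 and Dcn, which encodes the matrix proteoglycan decorin, by 6.06. Without the late C arrays 5 of them rose, with Col1a2 at 0.98 and Col6a1 at 1.29, beside 17.4% of all tested called higher. With day 0 turned none of Pdgfrb, Prrx1 and Dcn passed, at 1.28, 0.49 and 1.65, where 1230 of all tested were called in either direction in place of 2940. Col5a1 and Col5a2 were then called lower, at -0.99 and -1.39 (limma adjusted p = 0.0297 and 0.0251). Leaving out the late C arrays as well kept both calls, and Pdgfrb, at 1.58, and Col6a1, at 1.25, were then called higher. In that fit 1717 of all tested were called in either direction. Of the 2 blood and immune genes, Tyrobp rose by 2.29, or 1.97 without the late C arrays, and Hba-a1 had -0.011. Tyrobp had 0.80 with day 0 turned and did not pass. The mean of the 10 fibroblast genes was 0.28 to 1.20 on the 9 arrays of days 1 to 3, against -0.84 to 0.11 on the 3 arrays of day 0. Day 0 arrays A and B, at -0.84 and -0.76, would lie inside the range of days 1 to 3 with their sign turned. The part of these list genes in the rise of Anxa4 and Bicc1 was not tested.

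Among the other bile duct genes that could be tested, none rose at day 7. At day 7 against day 0, Anxa4 was the only 1 of 5 called higher, and 0 fell (background 14.6% higher and 13% lower). Cd24a, a surface sialoglycoprotein of progenitor and ductal cells, differed by -0.86 (limma adjusted p = 0.0698), Itga6, the laminin receptor subunit integrin alpha 6, by -0.31 (0.298), and Slc4a2, the anion exchanger used in bicarbonate secretion, by -0.34 (0.660). The median of the 5 genes was -0.31, beside -0.0091 for all tested. With the late C arrays left out, Anxa4 and Bicc1 were called higher at day 7, while Cd24a had -0.69, Itga6 -0.24 and Slc4a2 0.28. The median of the 5 was then 0.28, beside 0.029 for all tested. Anxa4 and Bicc1 are themselves among the 5, and of the others only Slc4a2 changed sign, so this median does not show a rise of the other ductal genes. The absence of a fall depended on the sign of day 0. When it was turned, Cd24a was called lower at day 7, at -1.45 (limma adjusted p = 0.00949). Without the late C arrays as well it had -1.28 (limma adjusted p = 0.0158). Itga6, at 0.27, and Slc4a2, at -0.16, did not pass with all arrays and day 0 turned. Itga6 took another course. It was 0.86 ± 0.22 higher at day 1 than at day 0 (SE, limma adjusted p = 0.0176), 1 of 5 called higher beside 4.99% of all tested. Without the late C arrays, Anxa4 and Bicc1 were called higher at day 1 too, which made 3 of 5 beside 10.6% of all tested. At days 5 to 7 Itga6 was lower than at days 1 to 3, by -0.84 ± 0.13 (SE, limma adjusted p = 0.00144). Its day 1 difference was 1.45 with day 0 turned and passed, and with 1 array of either day left out it was 0.74 to 0.95 and passed in 3 of 6 fits. In the comparison of late with early days Anxa4 rose, Itga6 fell and 3 did not pass, beside 3.51% of all tested called higher and 4.23% lower, and without the late C arrays Bicc1 rose as well. On the C arrays of days 4 to 7 relative to the A and B arrays, Slc4a2 differed by -1.37, Cd24a by 0.11 and Itga6 by -0.18.

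The tested annexins differed in sign at day 7. Of 13 genes listed, annexins and their S100 partners, 5 were tested, and at day 7 only Anxa7, also a calcium-dependent membrane-binding annexin, rose, by 1.01 ± 0.27 (SE, limma adjusted p = 0.00987). This was 1 of 5 called higher and 0 lower, beside 14.6% and 13% of all tested, and the same 1 of 5 was called without the late C arrays, at 1.07. With day 0 turned its difference was 0.44 (limma adjusted p = 0.331), and without day 0 array A it was 0.76 (limma adjusted p = 0.0690). Anxa5, which binds phosphatidylserine, had 0.92, Anxa2, which pairs with S100a10 at the plasma membrane, -1.03, Anxa3 -1.05 and Anxa6 -1.49, with limma adjusted p between 0.0586 and 0.147. Turning day 0 made Anxa2 pass as lower, at -1.63 (limma adjusted p = 0.0110), or -1.39 without the late C arrays (limma adjusted p = 0.0331). Anxa3, Anxa5 and Anxa6 did not pass that way. With the sign of day 0 kept, the median of the 5 was -1.03. Anxa5, Anxa7 and Anxa4, which is not among the 5, lay above 0, and Anxa2, Anxa3 and Anxa6 below it. No annexin of the 5 was called at day 1, beside 4.99% of all tested called higher. None was called between late and early days, beside 3.51% called higher and 4.23% lower. On the C arrays of days 4 to 7 relative to the A and B arrays, the 5 differed by between -1.47 for Anxa6 and 0.11 for Anxa5.

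Of 27 genes listed as partners, targets or effectors of the Bicc1 protein, 16 had a feature and 12 were tested. Anks3, a SAM-domain protein that binds Bicc1 protein, rose by 0.80 ± 0.19 at day 7 (SE, limma adjusted p = 0.00393), and Cnot2, a scaffold subunit of the CCR4-NOT complex, by 0.75 ± 0.17 (SE, limma adjusted p = 0.00301). Ago2, the slicer Argonaute of small RNA silencing, fell by 0.96 (SE 0.27, limma adjusted p = 0.0142). None of these 3 passed with day 0 turned, at 0.42 for Anks3, 0.20 for Cnot2 and -0.61 for Ago2. With that turn 1230 of all tested were called at day 7 in either direction, in place of 2940. The other 9 did not pass. The 2 of 12 called higher and 1 of 12 lower stood beside 14.6% and 13% of all tested, and the median of the 12 was 0.27. Without the late C arrays, Nek8, a kinase of the cilium, at 1.03 and Cnot8, a deadenylase subunit, at 1.14 also passed at day 7, which made 4 of the 12 higher, beside 17.4% of all tested, and 1 lower. At day 1 only Cnot2 was called, at 0.53 (limma adjusted p = 0.0476), 1 of 12 beside 4.99% of all tested called higher. That call was lost in each of the 6 fits with 1 array of either day left out. Between late and early days only Ago2 was called, at -0.52 (limma adjusted p = 0.0485), 1 of 12 beside 4.23% of all tested called lower. With the late C arrays left out, the Ago2 difference was -0.31 and no longer passed (limma adjusted p = 0.256), while Nek8 at 0.52 and Tob2 at 0.75 were called higher (limma adjusted p = 0.00942 and 0.0162), 2 of 12 beside 3.92% of all tested. At day 1, Cnot6 also passed in that fit, at 0.77 (limma adjusted p = 0.00372), which made 2 of 12 higher beside 10.6% of all tested.

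**Figure D3:**
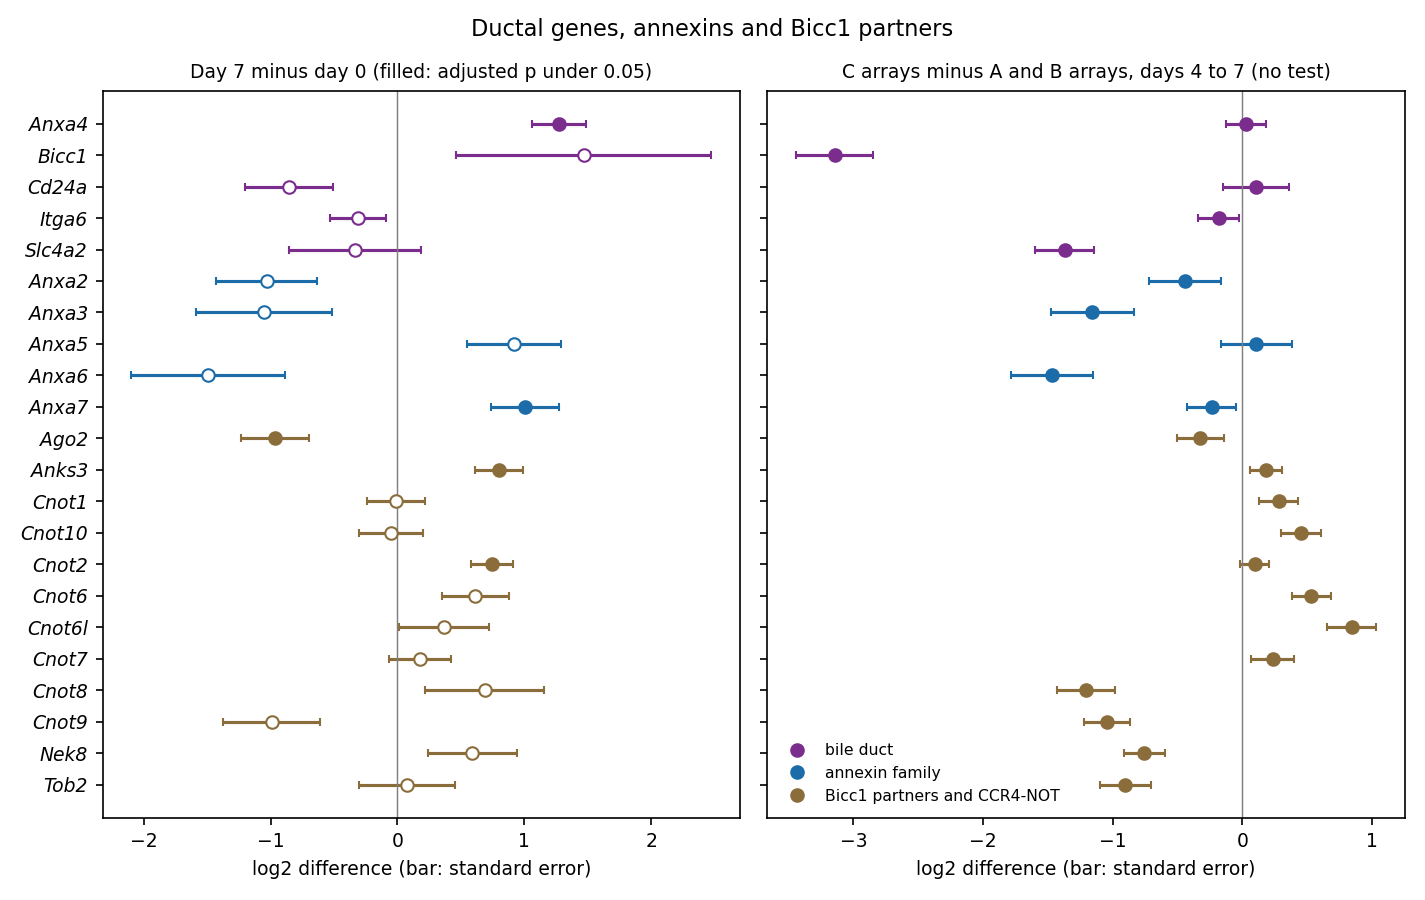
Log2 difference (x axis, bars are standard errors) of the tested bile duct genes, annexins and Bicc1 partners (y axis) at day 7 minus day 0 (left) and on the C arrays minus the A and B arrays of days 4 to 7 (right); in the left panel filled points passed an adjusted p of 0.05 and open points did not, and the right panel is a description with no test. Anxa4 is filled on the left at 1.27 and lies at 0.03 on the right, and Bicc1 is open on the left at 1.47 and lies at -3.14 on the right.

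The genes whose log2 ratios followed each of the pair most closely were ranked by Pearson's correlation over arrays, a description without a test, since all genes share the same arrays. For Anxa4 the 5 closest of 4087 candidates over 22 arrays were Laptm4b (r = 0.948), Dpp7 (0.944), Hexa (0.942), Ndfip1 (0.902) and Idh1 (0.901). Laptm4b encodes a lysosomal membrane protein, Dpp7 a dipeptidyl peptidase, Hexa the alpha subunit of a lysosomal hexosaminidase, Ndfip1 an adaptor of NEDD4-family ubiquitin ligases and Idh1 the cytosolic isocitrate dehydrogenase. Over the 8 day means the same 5 had correlations of 0.995, 0.979, 0.975, 0.936 and 0.955 with Anxa4. Laptm4b, the closest, lay at 1.99 to 2.04 on the 4 C arrays of days 4 to 7, inside the 1.85 to 3.49 of the 8 A and B arrays, and at -0.54 to -0.21 at day 0. Laptm4b had no split between letters of the kind seen for Bicc1. It was chosen by its likeness to Anxa4 over these same arrays, so this follows largely from the choice.

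For Bicc1 the 5 closest of 4081 candidates over 24 arrays were Aamp (r = 0.923), Zfp740 (0.918), Cd82 (0.906), Atp6v0b (0.901) and Galnt10 (0.897). Aamp encodes a WD-repeat protein, Zfp740 a zinc finger protein, Cd82 a tetraspanin, Atp6v0b a subunit of the vacuolar proton pump and Galnt10 an enzyme that starts O-linked glycan chains. Over the 8 day means their correlations with Bicc1 were 0.769, 0.775, 0.870, 0.777 and 0.891. Each of the 5 had its C arrays of days 4 to 7 below its A and B arrays, which follows largely from their choice by likeness over these same arrays. Aamp, the closest, lay between -1.28 and -0.96 on those C arrays, against 0.24 to 1.19 on the A and B arrays. Without these 4 arrays the correlations of the 5 with Bicc1 were 0.841, 0.863, 0.819, 0.821 and 0.799, and those of the 5 named for Anxa4 with Anxa4 were between 0.898 and 0.958.

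**Figure D4:**
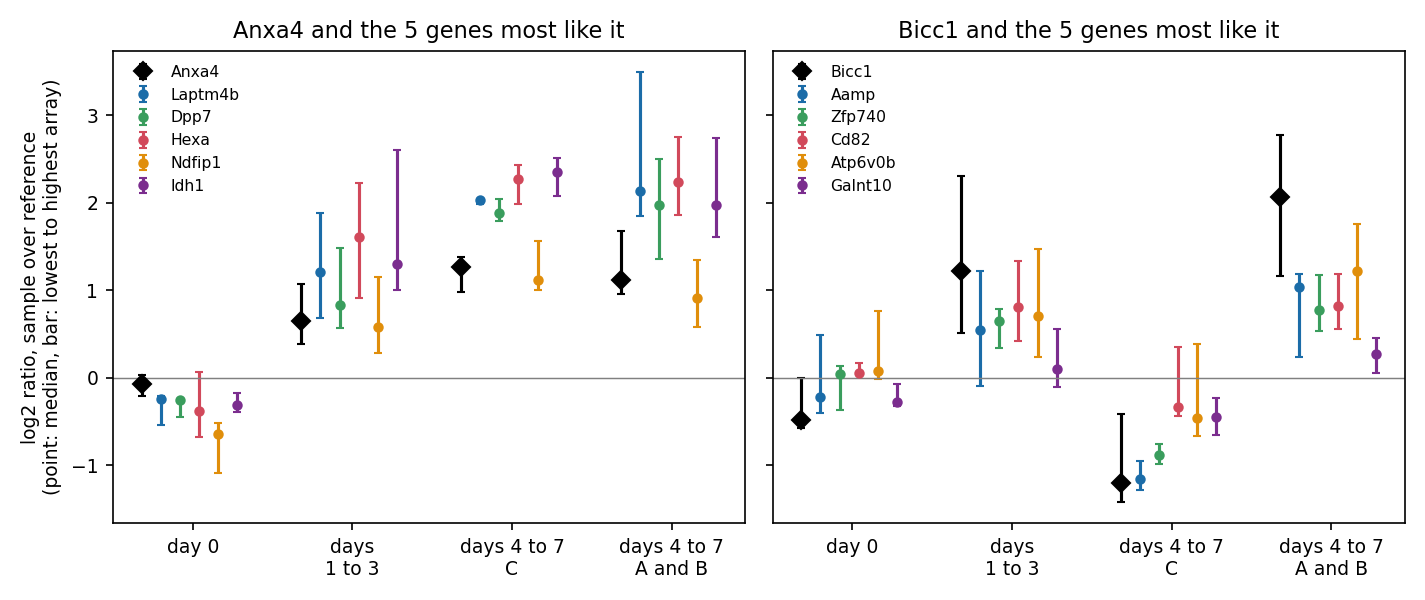
Log2 ratio of sample over reference (y axis) in 4 sets of arrays (x axis) for Anxa4 and the 5 genes most like it (left) and Bicc1 and the 5 genes most like it (right); points are medians over arrays and bars run from the lowest to the highest array. The 4 C arrays of days 4 to 7 lie high in the left panel, with Laptm4b at 1.99 to 2.04, and low in the right panel, with Aamp at -1.28 to -0.96.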

How the data were processed

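The authors deposited 1 table of log ratios, 24157 features by 24 arrays, used here as log2 of sample (Cy5) over reference (Cy3). The dyes are per the labels' protocols, and no source used here gives the scanner, background correction, normalization, log base or reason for empty cells. Deposited array medians ran from -0.025 to 0.029, and the SD on an array from 0.332 to 1.06. Each array was centred on its median. GEO's platform annotation gave 1 symbol to 13319 features, several to 589 and none to 10249, and symbols were updated by Entrez identifier. Features of a gene were averaged, and every gene or unnamed feature measured on 2 or more arrays of each day was tested, 10639 in all (5660 genes and 4979 unnamed features). Of the genes on the lists with several features, Cnot7 had 1 of 3 and Hba-a1 2 of 3 measured features opposite in sign to their mean at day 7 against day 0. Comparisons used lmFit and eBayes of limma 3.58.1 (R 4.3.3), 2-sided, with Benjamini-Hochberg adjustment over everything tested, a procedure tested on simulated data, and exact permutation tests in SciPy 1.17.1. Differences were fitted over all days together, and a call means an adjusted p under 0.05.

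Anxa4, Bicc1, the gene lists and the tests were chosen with earlier results of these data known. The text names both genes in every comparison, tested members of the lists, and for each of the pair the 5 genes with the highest correlation. The comparison of C with A and B arrays, and the genes named from it, were chosen after the values were seen. Alternatives were centring, scaling, the sign of day 0, the arrays and features used, moderation, a replicate block and each array left out. No sequence is given.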

Additional observations from a re-analysis of the deposited data

How the results depend on the processing

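For Anxa4, the rise at day 7 kept its direction and passed under every alternative run, as did days 4 to 6. Its day 1 difference passed with arrays scaled to 1 spread (0.83), with only the groups compared (0.62), with a replicate block (0.62), with the sign of day 0 array C turned (0.64), against the reference channel (0.54), without the C arrays of days 4 to 7 (0.62) and with a term of their own for those arrays (0.62). Its day 2 call was lost with day 0 turned, with trend and robust moderation (0.74, limma adjusted p = 0.0502) and in 5 of 6 fits with 1 array left out. Its late against early difference was lost on scaling (0.24) and lay between 0.48 and 0.61 with 1 array left out, losing the call without day 2 array C or day 3 array A. Its difference between the C and the A and B arrays changed sign on scaling (-0.24) and lay between -0.059 and 0.18 with 1 array left out. Anxa4 had no value where a value was required on all 24 arrays.

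For Bicc1, day 1 passed at 1.45 with only the groups compared, without the C arrays of days 4 to 7 and with a term for them. Day 7 passed without those arrays (2.73, or 2.03 with day 0 turned as well) and with the term (2.52), and lay between 0.67 and 2.73 with 1 array left out, passing without day 7 array C (2.73, limma adjusted p = 0.0492). Late against early changed sign without the C arrays (0.83, also with day 0 turned) and with the term (0.83), and lay between -0.48 and 0.20 with 1 array left out. Day 7 against day 1 changed sign on scaling (-0.27) and lay between -0.78 and 1.29 with 1 array left out. Anxa4 minus Bicc1, late against early, was -0.17 without the C arrays. Cnot2 at day 1 was -0.015 with day 0 turned, with or without those arrays.

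Same-lettered arrays deviated together within days 1 to 3 and within days 4 to 7, but in only 4 of 21 pairs with day 0 was the correlation over 0.1, so the letters were not taken to pair samples, although 19 of 24 arrays correlated best with their own letter. With the replicate block, Bicc1 at day 2 passed (2.01, limma adjusted p = 0.0488), and late against early called 1543 genes and features in place of 823.

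Counts of genes and features called at day 1, 1161 as reported, were 3259 on scaling, 2577 with only the groups compared, 2271 without the C arrays, 2283 with their term, 515 with day 0 turned, 592 with all 24 arrays required and 330 to 1565 with 1 day 0 or day 1 array left out, lowest without day 0 array B. At day 7, 2940 were called, but 1607 with only the groups compared, 1230 with day 0 turned, 1717 with the C arrays left out as well, and with day 0 array A or B left out 1874 or 1616. Late against early ran from 403 to 1249 with 1 array left out. The causes were not tested.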
